A study of Mus musculus with 66 samples.

Results

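Newly made RNA of mouse fibroblasts was compared 1.5 h after activation of MycER with that at 0 min. The comparison takes 6 of the 66 libraries of the series, chosen by RNA kind and time in the sample titles: labelled RNA at 1.5 h (3 libraries) and at 0 min (3 libraries). Exon and intron values were analysed apart. All groups came from 1 line, 3T9-MycER fibroblasts of E13.5 mouse embryos with genotype c-myc flox/flox, infected in culture with the retroviral pBabe MycER construct that also gives zeocin resistance. The 1.5 h group had 400 nM 4-hydroxytamoxifen (OHT) for 1.5 h and the 0 min group had none. RNA of both was labelled with 300 µM 4-thiouridine (4sU) for 10 min, biotinylated and taken up on streptavidin beads. Libraries at 1 h and 2 h, and total RNA at 0 min and 1.5 h from the same line, are used only beside it. No untreated time course was analysed here, so effects of OHT and of MycER cannot be told apart. Replicates carry numbers with no culture named for them, so p-values measure a spread between libraries that may be technical. In bulk RNA, fewer cells of a kind and less RNA per cell cannot be told apart.

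Myc is a transcription factor that pairs with Max and binds the E-box CACGTG, mostly near gene starts. It is known for raising genes of ribosome building, nucleotide synthesis and nutrient uptake and for lowering genes of growth arrest and adhesion. In MycER, Myc is fused to the hormone-binding part of the oestrogen receptor and stays inactive until OHT is added. A short pulse of 4sU enters RNA made during the pulse, so intron values of labelled RNA stand close to transcription, while exon values also carry spliced transcripts.

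The 3 promoter stretches below are shown because their genes, with 3 different roles, rose in new exons and carry the E-box. Dusp2 encodes a phosphatase that switches off MAP kinases, Slc16a1 a lactate and monocarboxylate transporter, and Mnt a Max partner that represses transcription. The stretches run 5′ to 3′ over 250 bases before the start site (RefSeq, GRCm38.p6), on the plus strand, and each matched the mm9 genome at 1 place: chr2:127161645-127161894 for Dusp2, chr3:104442337-104442586 for Slc16a1 and chr11:74644176-74644425 for Mnt. Capitals mark CACGTG, which is its own reverse complement and starts 109, 200 and 123 bases before the start site.
Dusp2: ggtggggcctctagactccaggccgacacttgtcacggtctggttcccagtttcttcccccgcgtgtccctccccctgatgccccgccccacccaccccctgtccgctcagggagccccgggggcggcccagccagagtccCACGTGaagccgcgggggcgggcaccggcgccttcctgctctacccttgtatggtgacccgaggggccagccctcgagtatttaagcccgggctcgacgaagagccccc
Slc16a1: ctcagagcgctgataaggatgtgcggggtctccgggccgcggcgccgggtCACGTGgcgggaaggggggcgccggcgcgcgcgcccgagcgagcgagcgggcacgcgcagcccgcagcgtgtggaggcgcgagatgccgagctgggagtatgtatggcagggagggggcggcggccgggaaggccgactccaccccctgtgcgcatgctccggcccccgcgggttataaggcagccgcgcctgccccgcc
Mnt: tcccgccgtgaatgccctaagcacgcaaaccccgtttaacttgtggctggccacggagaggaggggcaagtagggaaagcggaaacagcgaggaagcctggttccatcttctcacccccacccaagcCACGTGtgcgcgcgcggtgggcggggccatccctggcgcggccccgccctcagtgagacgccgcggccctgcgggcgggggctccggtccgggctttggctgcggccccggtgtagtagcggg
In windows from 250 bases before to 50 bases after a start site, CACGTG stood in 8.09% of all 27025 genes with a promoter in the RefSeq table. Of 11488 genes tested in exons, 9192 had such a window and 12.1% of those held the E-box. A gene with several windows counted once if any of them held the E-box. Among genes with a window, it stood in 60 of the 376 that rose by at least 1.5-fold and in 13 of the 166 that fell by as much. For ribosome biogenesis genes it stood in 10 of 41, and for circadian clock genes in 5 of 16. Among the 12 largest exon rises it stood in 3 of the 11 genes with a window. A match is a run of letters and not a measured binding site.

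Deposited exon values summed to between 11619390 and 13806462 per library over the 6 libraries, and intron values to between 33254079 and 36919684. Gaps among the low whole numbers of some labelled libraries look like rescaling before deposit, so true read depth is unknown. Of the 6 libraries only replicate 3 of 1.5 h had such a gap. Fibroblast markers marked the cells: 11 of the 14 listed were in the tables, with a summed exon RPKM of 1100 to 1329 at 0 min and 942 to 1180 at 1.5 h. Blood markers (4 of 11 in the tables) summed to between 2.64 and 3.98, endothelial markers (4 of 10) to between 1.01 and 1.24, neural markers (3 of 10) to between 1.82 and 2.58, and none of the 11 epithelial markers was in the tables. The Myc exons themselves, which cannot tell endogenous Myc from MycER here, had overlapping scaled values of 3899, 2717 and 3347 at 0 min and 2975, 2633 and 1927 at 1.5 h, a log2 change of -0.41 ± 0.16 (adjusted p = 0.0607) that did not pass the test.

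Whether rises or falls of new RNA were more numerous, and by how much, depended on the scaling. Unless said otherwise, values were divided by a trimmed-mean factor per library (TMM), fitted on log2(value + 1) with limma, and called at a Benjamini-Hochberg adjusted p under 0.05. In exons, 1694 of 11488 genes rose (14.7%) and 1307 fell (11.4%), so that 56.4% of the called genes were higher at 1.5 h. Median-ratio scaling gave 1649 rises and 1348 falls and scaling by library sums gave 1557 and 1524. The balance tipped the other way with the upper quartile (1429 and 1818), and further with TMM factors from the sum of exon and intron values (994 and 2166). With the deposited values as they stand, 992 genes rose and 2624 fell, a share of 27.4% higher. With the factors of the intron table in place of the exon table's own, 670 rose and 2440 fell. Without replicate 3 of 0 min, TMM scaling gave 1351 rises and 841 falls.

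**Figure D1:**
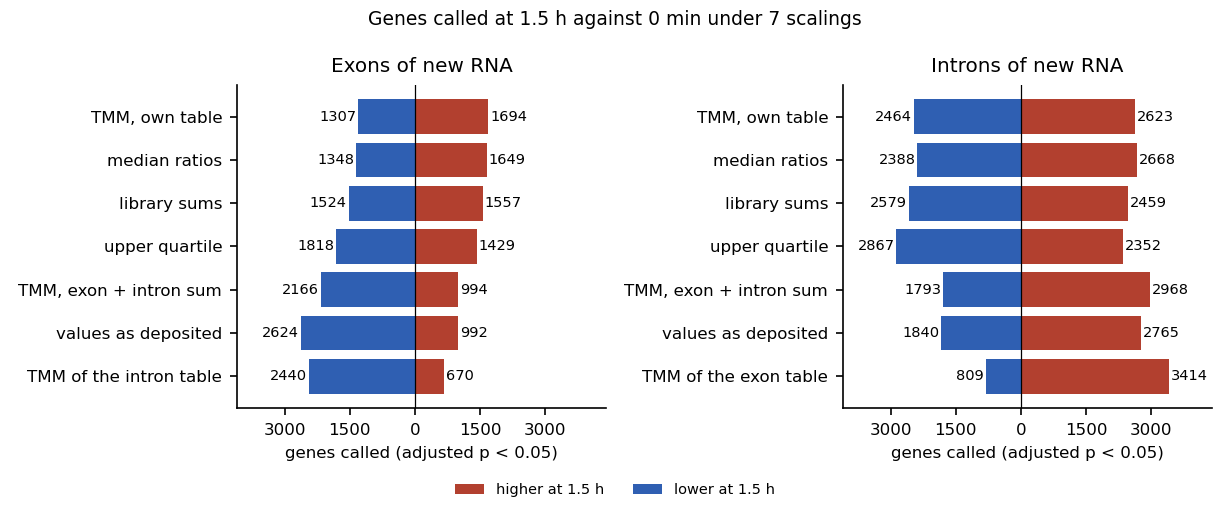
Genes called higher (right, red) and lower (left, blue) at 1.5 h than at 0 min under 7 scalings, in exons (left panel) and introns (right panel) of new RNA; the x axis counts genes. In exons the balance goes from 1694 rises and 1307 falls with the table's own TMM factors to 670 and 2440 with those of the intron table, and in introns from 2352 and 2867 with the upper quartile to 3414 and 809 with the exon table's factors.

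These settings differ by little per gene. The mean log2 divisor of the 1.5 h libraries minus that of the 0 min libraries was -0.12 by TMM in exons and 0.04 in introns, so that deposited exon values were slightly lower and intron values slightly higher at 1.5 h. Without further scaling the median log2 change over all exon genes was -0.13, against -0.01 by TMM. By TMM 474 of the 1694 exon rises and 196 of the 1307 exon falls reached 1.5-fold. No spike-in is described in the sources used here, so a change shared by all genes cannot be seen, and all rises and falls are relative to the typical gene of the table.

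Larger exon changes leaned to rises more steadily. At 1.5-fold or more, 474 genes rose (4.13%) and 196 fell (1.71%) by TMM, while the deposited values as they stand gave 312 and 412, 256 and 550 came from the factors of the intron table, and 321 and 368 from TMM on the exon and intron sum. At 2-fold or more rises outnumbered falls under each of the 7 scalings, from 83 rises and 55 falls with the intron table's factors to 140 and 30 with TMM. At 4-fold or more there were 12 to 18 rises and 0 falls under those 7 scalings (limma), with 4210 genes of any size at an unadjusted p under 0.05 by TMM. These higher cut-offs were chosen after the values were seen.

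More genes were called in introns than in exons. Deposited sums were also larger for introns, so the shares called are not a like comparison. Of 11506 genes tested, 2623 rose (22.8%) and 2464 fell (21.4%) by TMM, and at 1.5-fold or more 902 rose (7.84%) and 582 fell (5.06%). Here the deposited values as they stand leaned to rises, with 2765 against 1840, and the upper quartile leaned to falls, with 2352 against 2867. The factors of the exon table gave 3414 rises and 809 falls. At 1.5-fold or more, rises outnumbered falls under all 7 scalings, the closest being 816 and 683 with the upper quartile. At 2-fold or more the counts lay between 268 rises with 111 falls and 454 rises with 40 falls.

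The balance also differed with the level of a gene. In the quartile of genes with the highest mean exon RPKM over all labelled libraries, 581 rose and 256 fell, so that 69.4% of called genes were higher. In the lowest quartile 207 rose and 179 fell (53.6% higher). Going up from there, the shares were 46.2% (403 rises and 469 falls) and 55.5% (503 and 403). Exons thus had no steady trend with level. The mean used for ranking includes the libraries at 1.5 h and later, so a rise can itself move a gene to a higher quartile. In introns the share went from 40.8% in the lowest quartile to 69.7% in the highest. By gene span, known for 91.6% of the genes, the quartile of longest genes had 588 intron rises and 775 falls (43.1% higher), while the other 3 quartiles had 53.3% to 57.8% higher. Exons had no such drop: the longest quartile had 392 rises and 316 falls (55.4% higher), and the other 3 had 53.8% to 58.1% higher.

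The 12 largest exon rises, chosen among genes whose groups did not overlap, are given first. Over all 11488 genes tested in exons, the 1.5 h libraries all lay above those of 0 min in 18% and all below in 15.7%. Up to 3 called members of a gene list were named by the smallest p, so groups that stand apart add no support there. P2ry2, a receptor for extracellular nucleotides (chromosome 7, 108145086 to 108160505 in mm9), had scaled exon values of 20.3, 15.1 and 13.9 at 0 min and 114, 110.4 and 109 at 1.5 h. The 1.5 h libraries lay close together, and the log2 change was 2.70 ± 0.23 (adjusted p = 2.98e-11). Ppargc1b, a coactivator of mitochondrial and lipid metabolism genes, read 24.2, 20.1 and 24.0 at 0 min and 150.2, 139.6 and 114 at 1.5 h. It rose by 2.51 ± 0.20 (adjusted p = 6.44e-12), with replicate 3 the lowest of the 1.5 h libraries. Nr1d1 encodes the repressor REV-ERBα of the circadian clock (chromosome 11, 98629246 to 98636647) and overlaps Thra on the other strand. Its exon values were 349, 285 and 263 at 0 min and 1736, 1779 and 1474 at 1.5 h, a rise of 2.48 ± 0.11 (adjusted p = 2.18e-18).

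Slc30a1 exports zinc from the cell, and its exon values were 224, 245 and 177 at 0 min and 1043, 1039 and 1108 at 1.5 h. The log2 change was 2.31 ± 0.13 (adjusted p = 8.24e-16). St6galnac4, which adds sialic acid to glycoproteins (chromosome 2, 32442615 to 32455218), was the most abundant of the 12 largest rises, with 568, 429 and 493 at 0 min and 2426, 2718 and 2085 at 1.5 h. It rose by 2.28 ± 0.08 (adjusted p = 7.44e-21). Dusp2, whose promoter is printed above, had exon values of 58.0, 72.5 and 54.5 at 0 min and 265, 290.0 and 247 at 1.5 h and rose by 2.11 ± 0.13 (adjusted p = 1.02e-14). Il15ra, a receptor chain for interleukin 15, rose by 2.09 (adjusted p = 6.21e-14), and Bhlhe41, a transcriptional repressor that binds E-boxes, by 2.08 (adjusted p = 1.59e-07) from 20.3 or less to 59.7 or more. The small GTPase gene Rasl11a, the heparan sulfate sulfotransferase gene Hs3st3b1, the signalling inhibitor gene Spry1 and the Wnt receptor gene Fzd4 rose by 2.04, 1.98, 1.98 and 1.96. All 12 stayed called under each scaling, filter and left-out library tried.

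**Figure D2:**
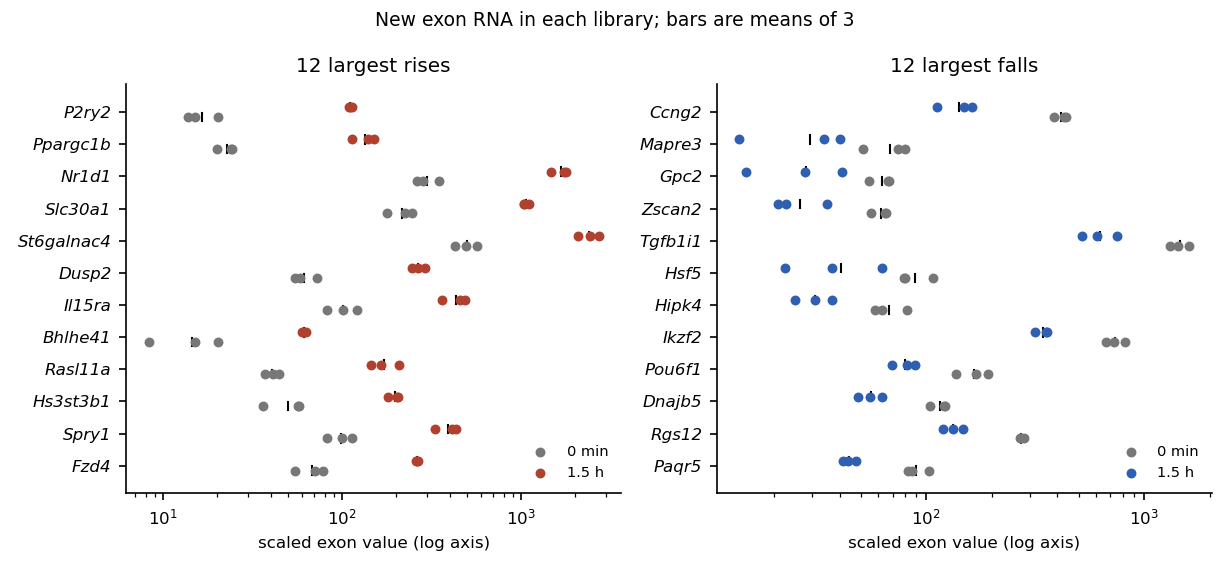
Scaled exon value in each library (log axis) for the 12 largest rises (left) and the 12 largest falls (right); grey points are 0 min, coloured points 1.5 h, and bars the mean of 3. The 24 genes were chosen among those whose groups do not overlap; St6galnac4 goes from a highest 0 min value of 568 to a lowest 1.5 h value of 2085.

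The 12 largest falls, chosen the same way, were smaller than the 12 largest rises. Ccng2, an unconventional cyclin tied to growth arrest (chromosome 5, 93696283 to 93705257), had exon values of 387, 428 and 436 at 0 min and 112, 149 and 162 at 1.5 h and fell by 1.57 ± 0.16 (adjusted p = 2.94e-09). Replicate 1 was the lowest at 1.5 h. Tgfb1i1 encodes Hic-5, an adaptor of focal adhesions (chromosome 7, 135390326 to 135398287), and its values of 1437, 1313 and 1616 at 0 min and 608, 749 and 520.3 at 1.5 h gave a fall of 1.23 ± 0.17 (adjusted p = 1.28e-06). Ikzf2, the zinc finger factor Helios, went from 672, 727 and 817 at 0 min to 353, 316 and 357 at 1.5 h and fell by 1.11 ± 0.10 (adjusted p = 1.27e-10). These 3 had the highest 0 min means of the 12 largest falls. The microtubule-end gene Mapre3, the glypican gene Gpc2, the zinc finger gene Zscan2 and the heat shock factor gene Hsf5 fell by 1.30, 1.24, 1.24 and 1.21, all from 0 min values of 107 or less. Hipk4, Pou6f1, Dnajb5, Rgs12 and Paqr5 fell by 1.11, 1.05, 1.04, 1.04 and 1.00. The calls of these 12 also held under each alternative tried.

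Genes that build ribosomes moved mostly one way. Of 45 ribosome biogenesis genes tested in exons, 30 rose and 0 fell (limma; 34 and 0 at an unadjusted p under 0.05), with a median log2 change of 0.31 against -0.01 over all genes (14.7% of all genes rose). The count was 20 and 0 for the deposited values as they stand and 11 and 0 with the intron table's factors, so its size but not its direction moved with the scaling. Rrp9, a processing factor that binds U3 small nucleolar RNA, had exon values of 1044, 842 and 949 at 0 min and 1911, 1989.7 and 1550.2 at 1.5 h, without overlap, and rose by 0.94 ± 0.08 (adjusted p = 9.14e-11). Rrp1b, a nucleolar protein of ribosome processing, rose by 0.75 (adjusted p = 1.68e-09), and Urb2, a nucleolar factor, from 2431, 2704 and 2428 at 0 min to 3741, 4141 and 3865 at 1.5 h by 0.64 (adjusted p = 1.00e-10). Ncl encodes the abundant nucleolar protein nucleolin and had 43269, 40633 and 38786 at 0 min and 55467, 46591 and 59263 at 1.5 h, a rise of 0.39 ± 0.09 (adjusted p = 0.00176). The call of Ncl ended with the deposited values as they stand (adjusted p = 0.069), the intron table's factors (0.239) and the exon and intron sum (0.0823).

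The RNA polymerases that make ribosomal and transfer RNA followed a similar count, 18 rises and 1 fall of 36 genes. The shares over all genes were 14.7% rises and 11.4% falls. The count was 11 and 3 with deposited values as they stand and 7 and 2 with the intron table's factors. Polr1b, the second largest subunit of RNA polymerase I, had exon values of 1975, 1675 and 1697 at 0 min and 3199.9, 3077 and 2875 at 1.5 h and rose by 0.78 ± 0.07 (adjusted p = 1.40e-10), and another of its subunit genes, Polr1e, by 0.77 (adjusted p = 1.11e-08). In both genes all 1.5 h libraries lay above those of 0 min, as in 18% of all genes. Polr1e overlaps Fbxo10 on the other strand.

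Genes that bring in nutrients gave a count that held under the scalings. Of 18 transporter genes 12 rose and 0 fell (13 and 0 at an unadjusted p under 0.05), also with the deposited values as they stand, and 9 rose with the intron table's factors. The median log2 change was 0.44, and 14.7% of all genes rose. Slc43a2, a carrier of large neutral amino acids, had exon values of 155, 119 and 118 at 0 min and 368, 406 and 337 at 1.5 h and rose by 1.504 ± 0.13 (adjusted p = 3.07e-11). Slc19a1, the folate carrier, which overlaps Col18a1 on the other strand, rose by 0.88 (adjusted p = 1.07e-11). Slc16a1 read 1869.7, 1808 and 1715 at 0 min and 3334, 2950.4 and 3575 at 1.5 h, with no overlap, and rose by 0.87 ± 0.08 (adjusted p = 4.91e-10).

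Counts in biosynthesis were less steady, and are to be read against 14.7% rises and 11.4% falls over all genes. Of 28 genes of purine and pyrimidine synthesis 14 rose and 1 fell by TMM, but 3 rose and 5 fell with deposited values as they stand and 1 rose and 5 fell with the intron table's factors. Leaving out replicate 1 of 1.5 h or replicate 2 of 0 min gave 9 rises and 1 fall each, and leaving out replicate 3 of 1.5 h 12 and 2. Ppat, an early enzyme of purine synthesis whose gene overlaps Paics on the other strand, had 1872, 1623 and 1548 at 0 min and 2703, 2589 and 2976 at 1.5 h and rose by 0.71 ± 0.07 (adjusted p = 1.25e-09). Rrm2, the ribonucleotide reductase subunit that peaks in S phase, had 1762, 1734 and 1729 at 0 min and 1378, 1359 and 1450.0 at 1.5 h and fell by 0.32 ± 0.06 (adjusted p = 6.82e-05). Cad, which starts pyrimidine synthesis, had overlapping groups of 4339, 3495 and 4002 at 0 min and 5212, 4451 and 4184 at 1.5 h and a change of 0.23 ± 0.08 (adjusted p = 0.0349) whose call was lost under 8 alternatives.

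Polyamine synthesis had 4 rises and 0 falls of 11 genes (also at an unadjusted p under 0.05, and 3 and 1 with deposited values as they stand), with Sms, spermine synthase, at 0.52 (adjusted p = 3.14e-06) and Amd1, which makes the aminopropyl donor, at 0.45 (adjusted p = 4.72e-07). Odc1, the first enzyme of the pathway, had overlapping exon values of 4281, 3521 and 3903 at 0 min and 4769.5, 4071 and 4094 at 1.5 h and a change of 0.14 ± 0.09 (adjusted p = 0.231). In serine and one-carbon metabolism 6 of 19 genes rose and 2 fell (3 and 2 with deposited values as they stand). Over all genes 14.7% rose and 11.4% fell, and the 2 falls of 19 lie near the latter share. Mat2a, which makes S-adenosylmethionine, rose by 0.65 (adjusted p = 2.59e-08) and the mitochondrial folate enzyme gene Mthfd1l by 0.59 (adjusted p = 4.19e-09).

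Over all exon genes 14.7% rose and 11.4% fell, and the lists of protein synthesis and folding that follow are to be read against those shares. Translation factors gave 13 rises and 4 falls of 44, against 4 and 6 with deposited values as they stand and 7 and 1 without replicate 3 of 0 min. Falls numbered 1 without replicate 2 or 3 of 1.5 h and 2 without replicate 1 of 0 min. Eef2k, the kinase that slows elongation, went from 535, 498 and 505 at 0 min to 1058, 1078 and 881 at 1.5 h, a rise of 0.97 ± 0.09 (adjusted p = 5.70e-10). Eif4e, which binds the RNA cap, rose by 0.43 (adjusted p = 8.38e-06), a call lost with the intron table's factors (adjusted p = 0.054). Of 20 cytosolic tRNA synthetase genes 2 rose and 4 fell, with Farsa at 0.34 (adjusted p = 0.000755), lost with the intron table's factors, and Mars, which overlaps Ddit3, at -0.27 (adjusted p = 0.000744). Leaving out 1 library gave 1 to 3 rises and 2 to 5 falls there, with 1 and 2 without replicate 3 of 1.5 h or replicate 1 of 0 min and 1 rise without replicate 3 of 0 min. Of 38 genes of the mitochondrial ribosome and transcription 8 rose and 0 fell (10 and 1 at an unadjusted p under 0.05), among them the mitochondrial transcription factor gene Tfb2m by 0.92 (adjusted p = 2.18e-11). Chaperonins and mitochondrial chaperones had 6 rises and 0 falls of 24 (7 and 0 at an unadjusted p under 0.05), or 3 without replicate 3 of 0 min and 2 with deposited values as they stand.

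**Figure D3:**
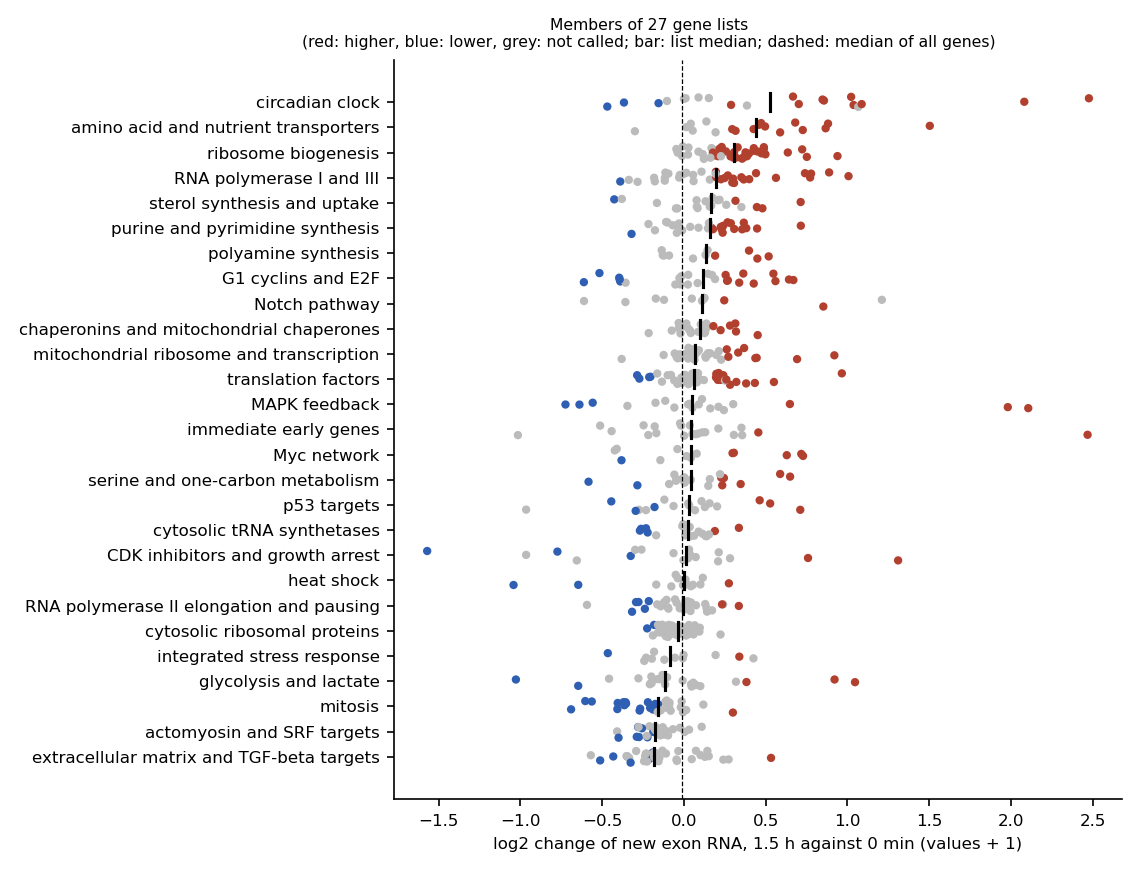
Log2 change of new exon RNA at 1.5 h against 0 min (x axis, values + 1) for the members of 27 gene lists (rows, ordered by median); red members were called higher, blue lower and grey not called, black bars are list medians and the dashed line the median of all genes. The clock, transporter and ribosome biogenesis lists stand farthest right, with medians of 0.53, 0.44 and 0.31, and the matrix and actomyosin lists farthest left.

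Circadian clock genes had the highest list median, 0.53. Of 20 genes 10 rose and 3 fell, where 14.7% of all genes rose and 11.4% fell. With deposited values as they stand 9 rose and 3 fell. Without replicate 2 of 0 min 8 rose and 1 fell, and leaving out any other of the 6 libraries but replicate 1 of 1.5 h also left 1 fall. Besides Nr1d1, its relative Nr1d2 had 1069, 790.1 and 723 at 0 min and 1651, 1515 and 2051 at 1.5 h and rose by 1.02 ± 0.12 (adjusted p = 3.56e-08). Tef, a transcription factor with clock-driven expression, went from 914, 668 and 676 at 0 min to 1349, 1310.2 and 1364 at 1.5 h and rose by 0.85 ± 0.10 (adjusted p = 4.05e-08). In both, all 1.5 h libraries lay above those of 0 min, as in 18% of all genes. Among other members Bhlhe40, a repressor close to Bhlhe41, rose by 1.09, the repressor genes Cry1 and Cry2 by 0.67 and 0.70, and Arntl, which encodes the clock activator BMAL1, fell by 0.47 (adjusted p = 0.0426) with overlapping exon groups.

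In the Myc network 5 of 13 genes rose and 1 fell by TMM, against 14.7% and 11.4% of all genes. With deposited values as they stand 3 rose and 4 fell. Falls numbered 0 without replicate 1 or 3 of 0 min, 2 without replicate 1 of 1.5 h and 3 without replicate 2 of 0 min, with 5 rises each. Max, the partner of Myc, had exon values of 631, 637 and 642 at 0 min and 998, 992 and 966 at 1.5 h, which stood tightly apart, and rose by 0.63 ± 0.06 (adjusted p = 7.13e-10). Mnt went from 573, 471 and 519.5 at 0 min to 880.3, 908 and 783 at 1.5 h and rose by 0.72 ± 0.10 (adjusted p = 9.39e-07). Mlxip, a factor that pairs with the Max-like protein Mlx, rose by 0.73 (adjusted p = 7.72e-08). Feedback genes of MAP kinase signalling had 3 rises and 3 falls of 19, near the shares of all genes (14.7% and 11.4%), and 3 and 1 without replicate 3 of 1.5 h. Dusp2, Spry1 and Dusp7 rose, Dusp7 by 0.65 (adjusted p = 1.33e-05), and Spred3, Dusp8 and Dusp1 fell by 0.72, 0.64 and 0.56. Of 22 immediate early genes 2 rose and 0 fell (3 and 1 at an unadjusted p under 0.05). Nr4a3, an orphan nuclear receptor gene, rose from low values of 1.93, 3.02 and 0.924 at 0 min to 11.9, 12.98 and 20.3 at 1.5 h. Klf10 rose by 0.46 (adjusted p = 0.0228), a call lost without replicate 2 of 1.5 h or replicate 3 of 0 min and under 3 scalings. Without those libraries in turn 1 gene rose, and leaving out replicate 1 or 2 of 1.5 h or replicate 1 of 0 min left 1 fall.

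Cell cycle genes were counted in a G1 and a mitosis list, whose difference was not tested. Of 26 G1 cyclin and E2F genes 10 rose and 5 fell (4 and 6 with the intron table's factors). Among all genes 14.7% rose and 11.4% fell. Ccnd2, cyclin D2, had exon values of 2635, 2621 and 2768 at 0 min and 4457, 4109 and 4202 at 1.5 h, clear of overlap, and rose by 0.67 ± 0.08 (adjusted p = 4.79e-08). Ccne2, cyclin E2, rose by 0.64 (adjusted p = 2.22e-06), and E2f7, a repressor of the family, went from 1804, 1675 and 1714 at 0 min to 1090.2, 1176 and 1131 at 1.5 h and fell by 0.61 ± 0.07 (adjusted p = 5.80e-09). Cdk4, a G1 kinase gene that overlaps Tspan31 on the other strand, read 3567, 3915 and 4373 at 0 min and 3829, 3802 and 3762 at 1.5 h, with a change of -0.05 ± 0.07 (adjusted p = 0.641). Of 33 mitosis genes 1 rose and 16 fell, where 11.4% of all genes fell, with a median of -0.16, and 0 rose and 24 fell with deposited values as they stand. Fzr1, an activator of the anaphase-promoting complex, fell by 0.69 (adjusted p = 2.03e-07), the kinesin gene Kif18b by 0.56 (adjusted p = 8.76e-06) and Kif4, a chromosome-bound kinesin gene, from 1947, 1920.3 and 1878 at 0 min to 1436, 1318 and 1598 at 1.5 h by 0.40 (adjusted p = 2.16e-05). The 1 rise was Espl1, the protease separase, by 0.30.

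Of the growth arrest genes 2 of 18 rose and 3 fell, near the shares of all genes (14.7% and 11.4%), and deposited values as they stand gave 2 rises and 6 falls. Klf9, a Krüppel-like factor, went from 349, 327 and 272 at 0 min to 698, 911 and 747 at 1.5 h and rose by 1.31 ± 0.11 (adjusted p = 2.22e-11), and the stress gene Ndrg1 rose by 0.76 (adjusted p = 1.95e-08). Besides Ccng2, the CDK inhibitor genes Cdkn2c and Cdkn1b fell by 0.77 and 0.33. Cdkn1a, the inhibitor p21, had low exon values of 28.0, 24.2 and 37.9 at 0 min and 12.9, 15.1 and 15.99 at 1.5 h, which did not overlap, and a change of -0.96 ± 0.38 (adjusted p = 0.0603) that missed the threshold.

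Counts of falls in cytoskeletal and matrix genes moved with the scaling and with the libraries left out, where 11.4% of all genes fell. Of 28 actomyosin genes 0 rose and 7 fell (0 and 11 at an unadjusted p under 0.05), with a median of -0.17. With deposited values as they stand 16 fell, with the intron table's factors 13, without replicate 3 of 0 min 3, and without replicate 2 or 3 of 1.5 h or replicate 1 of 0 min 4 each. Flna, the actin crosslinker filamin A, read 33153, 30737 and 34236 at 0 min and 29174, 25834 and 25860.5 at 1.5 h and fell by 0.28 ± 0.07 (adjusted p = 0.00278), a call lost with the 6 libraries alone in the fit (adjusted p = 0.0839), and Pdlim7, an actin-associated LIM protein, fell by 0.40 (adjusted p = 0.00223). Of 35 matrix and TGF-beta target genes 1 rose and 6 fell. That became 1 and 17 with deposited values as they stand, 1 and 0 without replicate 3 of 0 min, 2 and 2 without replicate 2 of 1.5 h, and 0 and 4 without replicate 2 of 0 min. Mmp14, a matrix metalloprotease, went from 1029.6, 1023 and 1252 at 0 min to 855, 700.0 and 896 at 1.5 h and fell by 0.43 ± 0.12 (adjusted p = 0.00695), a call lost without replicate 2 of 1.5 h or replicate 3 of 0 min.

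Several introns rose far more than the exons beside them. Smtnl2, a smoothelin-like gene (chromosome 11, 72202666 to 72225215), had scaled intron values of 10.1, 4.93 and 4.14 at 0 min and 177, 191 and 129 at 1.5 h, a log2 change of 4.56 ± 0.24 (adjusted p = 4.66e-16). The rule that chose the 8 largest intron rises asks for intron groups that do not overlap. Exon values of Smtnl2, 167, 188 and 142 at 0 min and 204, 261 and 189.8 at 1.5 h, gave a change of 0.39 ± 0.16 (adjusted p = 0.0661). Rgcc, a cell cycle regulator gene, had introns of 33.3, 23.7 and 35.2 at 0 min and 423, 233 and 462 at 1.5 h and rose by 3.51 ± 0.24 (adjusted p = 2.16e-13). Xkr8, a lipid scramblase gene, went from 51.5, 37.5 and 23.8 at 0 min to 286, 280.3 and 275 at 1.5 h in introns and rose by 2.93 ± 0.17 (adjusted p = 4.96e-15), against 1.69 in exons. Reep6, of an endoplasmic reticulum protein, rose by 2.91 in introns and 1.80 in exons, and Ankrd6, an inhibitor of Wnt signalling, by 2.78 and 1.84. P2ry2, St6galnac4 and Ppargc1b completed the 8 largest intron rises with 2.99, 2.64 and 2.49. Whether counting used strand is not given in the sources used here, so reads of an overlapping gene cannot be told apart from a gene's own introns, and for Ankrd6 and St6galnac4 the annotation has such genes on the other strand.

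Intron falls reached smaller sizes. Efcab11, a calcium-binding EF-hand gene, had intron values of 978, 959.6 and 1277 at 0 min and 393, 325 and 329 at 1.5 h and fell by 1.61 ± 0.16 (adjusted p = 1.18e-09), while its exon groups overlapped. Tax1bp3, a small PDZ protein gene (chromosome 11, 72990585 to 72996664), had 240.1, 241 and 300.5 at 0 min and 109, 103 and 67.9 at 1.5 h in introns, a fall of 1.49 ± 0.17 (adjusted p = 2.06e-08), and a change of -0.40 (adjusted p = 0.0108) in exons. The rule that chose both asks for intron groups that do not overlap. Cyp39a1, an oxysterol hydroxylase gene, fell by 1.49, Ccng2 by 1.40, the lipid raft gene Rftn2 by 1.38, the myosin light chain gene Myl9 by 1.37 and Samd14 by 1.37. Egr1, an immediate early transcription factor gene, fell by 1.44 in introns, a call lost without replicate 3 of either group, and its exons gave -0.44 (adjusted p = 0.465).

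**Figure D4:**
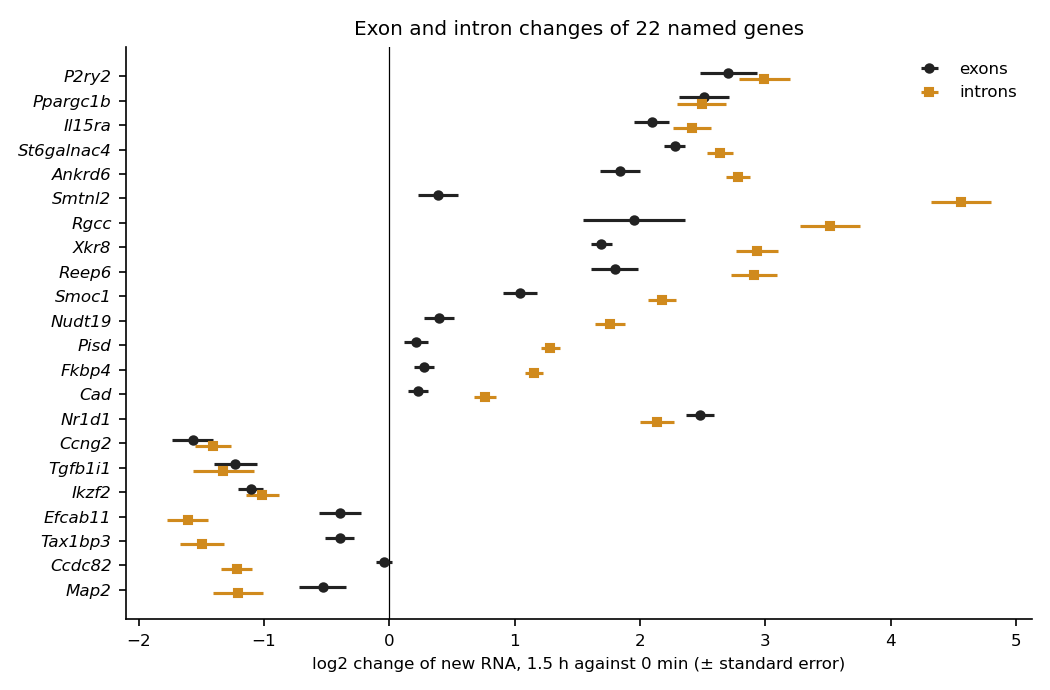
Log2 change at 1.5 h against 0 min in exons (black circles) and introns (orange squares) of 22 genes named in the text, with bars of 1 standard error either side. Exon and intron changes lie together for Ppargc1b, Ccng2, Tgfb1i1 and Ikzf2 and far apart for Smtnl2 (0.39 in exons, 4.56 in introns), Nudt19 and Pisd.

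Introns called 44.2% of all genes in either direction, against 26.1% in exons, so list counts are to be read against 22.8% rises and 21.4% falls. Ribosome biogenesis had 34 rises and 0 falls of 45 (35 and 1 at an unadjusted p under 0.05), transporters 13 and 0 of 18 (also at an unadjusted p under 0.05), nucleotide synthesis 17 and 4 of 28, translation factors 19 and 5 of 44 and RNA polymerases I and III 19 and 2 of 36. Cad and Odc1 rose in introns by 0.76 (adjusted p = 2.61e-08) and 0.41 (adjusted p = 0.00851), and Max by 0.82 (adjusted p = 1.19e-10). Mitosis genes had 2 rises and 18 falls of 33, or 3 and 7 with the exon table's factors. Actomyosin genes had 0 rises and 15 falls of 28 (0 and 18 at an unadjusted p under 0.05), but 6 falls with the deposited values as they stand, 2 with the exon table's factors, 5 without replicate 3 of 0 min, 4 without replicate 3 of 1.5 h (with 1 rise), 8 without replicate 1 of 1.5 h and 9 without replicate 1 of 0 min. Thus for this list the scaling without further factors raised the count of falls in exons and lowered it in introns.

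The intron to exon ratio was compared within each library, where a factor shared by both tables cancels but a factor of 1 table alone does not. It rose in 751 of 11481 genes (6.54%) and fell in 47 (0.409%), so that 6.95% were called, 291 of them rises of at least 1.5-fold (2.53%), with a median log2 change of 0.15 over all genes. This lean was shared by whole libraries: the median ratio over genes, relative to the 0 min mean, stood at 0.01, 0.27 and 0.16 in replicates 1 to 3 of 1.5 h and at 0.00, 0.10 and -0.10 in those of 0 min. Introns took 72.4%, 75.8% and 74.7% of the deposited sum at 1.5 h and 71.8%, 74.2% and 70.7% at 0 min. The groups overlapped (exact permutation test without regard to replicate number, two-sided, p = 0.2, where 0.1 is the smallest that 3 against 3 can give). Between libraries of the same number the share was higher at 1.5 h in each case, and that pairing was not tested. Scaling each table by TMM brought the median change over all genes to -0.008. It gave 412 rises and 226 falls, so that 64.6% of called genes still rose. The count of rises was 1798 without replicate 1 of 1.5 h, 247 without replicate 2, 280 without replicate 3 and 148 without replicate 3 of 0 min, and the count of falls was 18 without replicate 3 of 1.5 h and 9 without replicate 3 of 0 min. With the 6 libraries alone in the fit it was 25 rises and 2 falls.

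Single genes showed ratios far beyond that lean. Nudt19, a peroxisomal hydrolase gene (chromosome 7, 36332204 to 36341323), had introns of 108, 141 and 127 at 0 min and 451, 490.4 and 348 at 1.5 h and exons of 179, 178 and 209.8 at 0 min and 234, 249.9 and 261 at 1.5 h, a ratio change of 1.52 ± 0.19 (adjusted p = 2.88e-05). Its introns rose by 1.76 and its exons by 0.39. Smoc1, a calcium-binding matrix protein gene (chromosome 12, 82127795 to 82287401), rose by 2.17 in introns, by 1.04 in exons and by 1.29 (adjusted p = 8.61e-07) in the ratio. Pisd makes phosphatidylethanolamine in mitochondria, and its introns went from 1954, 1793 and 1741 at 0 min to 4639, 4231 and 4485 at 1.5 h, with overlapping exons, a ratio rise of 1.23 ± 0.12 (adjusted p = 8.61e-07). Adck3, a kinase-like gene of coenzyme Q synthesis, Zfyve28 and the ion channel gene Asic1 rose in ratio by 1.53, 1.503 and 1.23. Adck3 overlaps Cdc42bpa on the other strand and Pisd another gene on its own strand.

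Ratio falls were few (47) without further scaling, and numbered 226 with TMM on each table and 194 with library sums. Ccdc82, a coiled-coil gene, had introns of 1297, 1181 and 1372 at 0 min and 549, 479 and 633 at 1.5 h and overlapping exons of 2928, 2899 and 2760.4 at 0 min and 2687, 2887 and 2766 at 1.5 h, a ratio fall of 1.01 ± 0.13 (adjusted p = 2.87e-05). Efcab11 fell by 1.06 (adjusted p = 0.000953), Zmat1 by 0.94 (adjusted p = 0.015) and Tax1bp3 by 0.93 (adjusted p = 0.00105). Unc13c, a synaptic vesicle priming gene, moved apart in its 2 readouts: exons rose by 0.34 (adjusted p = 0.000496) and introns fell by 0.63 (adjusted p = 0.0013), a ratio fall of 0.81. Map3k13 had a ratio fall of 0.78, a call lost under 6 alternatives, among them leaving out any library but replicate 1 of 0 min. The call of Zmat1 was lost without replicate 3 of either group. With the 6 libraries alone in the fit the ratio calls of Asic1 (adjusted p = 0.0619), Ccdc82 (adjusted p = 0.0684), Tax1bp3 (0.125), Zmat1 (0.141) and Unc13c (0.122) were lost.

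Against 1 h, which does not use the 0 min libraries, few exon calls were made. Of 11488 genes 1 rose (0.0087%) and 1 fell (0.0087%), 0.0174% in all, while 1389 had an unadjusted p under 0.05. The fall was Nfil3, a clock-linked repressor that competes with Tef and its relatives, by 0.60 (adjusted p = 0.0495), a call lost in 6 alternatives. Counts moved to 21 rises and 1 fall with library sums, to 1 rise and 41 falls with deposited values as they stand, and to 8 and 7 without replicate 1 of 1.5 h, and to 0 of both without replicate 2 or 3 of 1.5 h or replicate 1 or 3 of 1 h. Between 1.5 h and 2 h no exon change was called in either direction by limma, with 719 genes at an unadjusted p under 0.05, and 1 gene rose and 1 fell without replicate 2 of 1.5 h.

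Introns gave 214 rises (1.86%) and 62 falls (0.539%) between 1 h and 1.5 h, or 2.4% in all, with 24 rises of at least 1.5-fold (0.209%). The deposited values as they stand gave 766 and 20. Without replicates 1, 2 and 3 of 1.5 h in turn the rises numbered 94, 102 and 51 and the falls 27, 27 and 14; without those of 1 h the rises were 40, 38 and 370 and the falls 8, 6 and 97. Of 33 mitosis genes 9 rose in this step, and of 20 clock genes 4 fell. Arntl fell in introns by 0.67 (adjusted p = 0.0107) (not called without replicate 1 of 1.5 h or replicate 2 of 1 h), Nfil3 by 0.61 (adjusted p = 0.00306) and Nr1d1 by 0.51 (adjusted p = 0.0423).

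Over the 11 times the 12 largest rises had their highest means at different times. The highest mean exon value was at 1 h for 3 of them, at 1.5 h for 2, at 2 h, 4 h and 8 h for 1 each and at 12 h for 4. Nr1d1 had a mean of 2006 ± 162 at 1 h, 1663 ± 165 at 1.5 h and 932 ± 85.8 at 16 h (SD, n = 3). St6galnac4 had a mean of 2410 ± 317 at 1.5 h and 3473 ± 219 at 8 h. Of the 12 largest falls, 4 were at their lowest at 1.5 h. These had low means there: Mapre3 29.2 ± 13.7, Gpc2 28.0 ± 13.1, Zscan2 26.3 ± 7.8 and Hsf5 40.6 ± 20.5. The rises and falls were chosen by their values at 1.5 h and 0 min, which favours extremes at those times. Ccng2 had a mean of 141 ± 25.8 at 1.5 h and 73.5 at 8 h and stood at 201 ± 18.1 at 16 h. Tgfb1i1 was at 626 ± 115 at 1.5 h and 226 ± 74.1 at 12 h. Changes between other times were not tested.

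**Figure D5:**
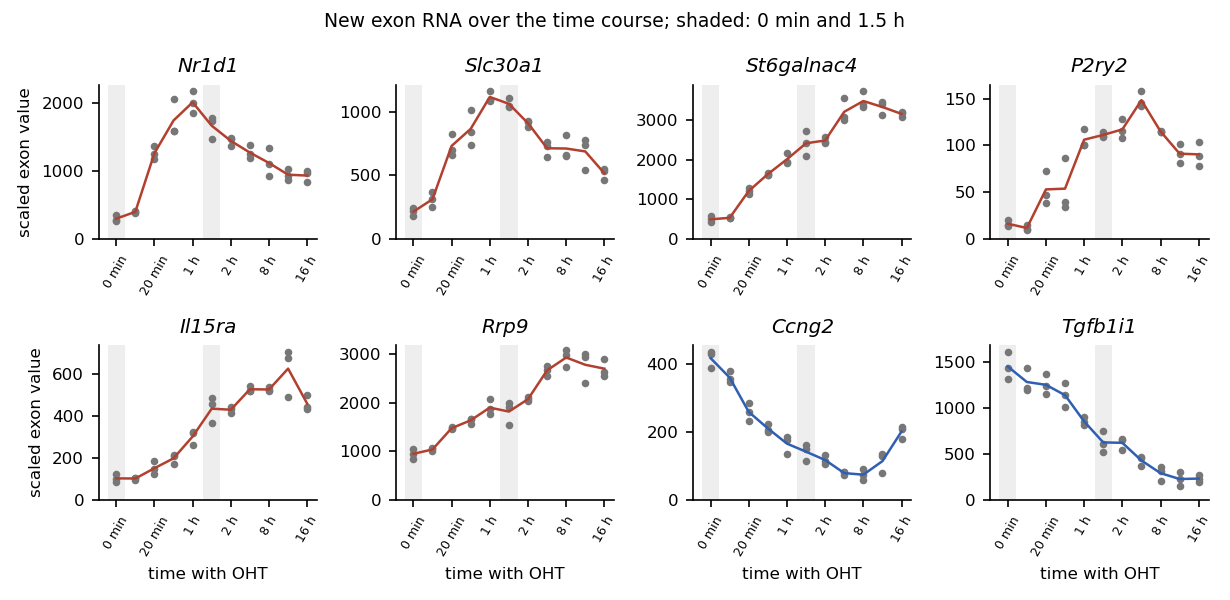
Scaled exon value of new RNA (y axis, from 0) at 11 times with OHT (x axis, evenly spaced) for 8 genes; points are libraries, lines are means of 3 and shading marks 0 min and 1.5 h. Nr1d1 and Slc30a1 have their highest mean at 1 h, St6galnac4 and Rrp9 at 8 h, and Ccng2 its lowest at 8 h.

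Fewer genes were called in total RNA at the same times. Of 11486 genes 1056 rose (9.19%) and 900 fell (7.84%), with 232 rises of at least 1.5-fold (2.02%), and 682 rose and 1395 fell with deposited values as they stand; without replicate 2 of total RNA at 1.5 h 590 fell. Nr1d1 rose by 3.13 (adjusted p = 5.97e-16) in total RNA beside 2.48 in new exons, P2ry2 by 2.51 beside 2.70 and St6galnac4 by 1.47 beside 2.28. Tested as a difference, St6galnac4 rose more in new than in total RNA, by 0.81 (adjusted p = 1.81e-06), and the differences of Nr1d1 (adjusted p = 0.0731) and P2ry2 (0.846) were not called. Ribosome biogenesis had 19 rises and 0 falls of 45 in total RNA (25 and 0 at an unadjusted p under 0.05). Mitosis genes had 0 and 13 of 33 (1 and 19 at an unadjusted p under 0.05) and clock genes 12 and 1 of 20. Actomyosin genes had 0 calls of 28 by limma, with 1 rise and 1 fall at an unadjusted p under 0.05.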

How the data were processed

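The authors deposited tables named counts and tables of RPKM for 11513 genes (15 without a symbol), with exons and introns apart. TopHat2 2.0.8, TopHat and build mm9 are named, per the submitters' processing notes. For counting tool, annotation and strand the sources used here give nothing. The tables deposited as counts hold whole numbers and were treated as a score. In 3 of the 33 labelled libraries some low whole numbers are nearly missing from both tables, as after rescaling and rounding. In 1 of the 3 the same numbers were missing from both tables, so whether the tables share a factor is unknown. Read depth is unknown too, and no count model was used. Labels gave groups and replicate numbers.

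Each table was scaled by TMM (30% and 5% trimmed), kept genes with at least 10 in at least 3 libraries, and log2(value + 1) was fitted with limma 3.58.1 (R 4.3.3, variance trend, 1 mean per time, 33 labelled libraries), two-sided, with Benjamini-Hochberg adjustment over all genes. The number after ± is the standard error where a log2 change stands before it; printed levels are scaled values. Ratios were log2(intron + 2) minus log2(exon + 2) of deposited values within a library. New and total RNA were compared by an interaction over 66 libraries, with tables scaled apart. That fit took all libraries as independent with a shared spread per gene. New and total libraries of the same time and number may come from the same culture, and that pairing was not used. Descriptions used Python 3.11.15. The fit was tested on simulated data. Positions are from GENCODE M1 (mm9), promoters from RefSeq GRCm38.p6, located in mm9 by exact match.

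Named genes were the 12 largest called rises and falls in exons, 8 in introns, 6 in the ratio and 5 in the other comparisons, with groups that did not overlap, a mean of at least 50 and a curated symbol; up to 3 called members of each of 32 lists; and Myc, Ncl, Odc1, Cad, Cdk4, Ccnd2, Cdkn1a, Nr1d1 and Ccng2. Other list members were named after their values were seen, and some named genes are not reported here. Members, lists and rules were chosen with earlier results of these data known. Other scalings, pseudocounts, filters, sample sets, a replicate block and left-out libraries were tried.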

Additional observations from a re-analysis of the deposited data

Results flagged for a closer look

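The change at 1.5 h against 0 min differed between new and total exon RNA by the interaction test for 98 of 11463 genes (0.855%): in 84 the log2 change was higher in new RNA (0.733%) and in 14 it was lower (0.122%). The former were led by Mob3b, a kinase activator gene, with a log2 difference of 1.09 (adjusted p = 0.00477): exons of new RNA went from 46.4, 34.2 and 37.9 at 0 min to 120.4, 134 and 126 at 1.5 h, and total RNA changed by 0.58. The mannosidase gene Man1a differed by 0.99 (adjusted p = 3.84e-06), the Wnt inhibitor gene Ankrd6 by 0.95 (adjusted p = 0.00776), Deptor, an inhibitor of mTOR, by 0.89 (adjusted p = 4.31e-06) and the stress gene Trp53inp1 by 0.85 (adjusted p = 0.0177). Deptor read 628, 663 and 618 at 0 min and 1848, 2034 and 1838 at 1.5 h in new exons, and its total RNA rose by 0.69.

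On the other side, Pou6f1, a POU transcription factor gene, differed by -1.05 (adjusted p = 0.0254), with new exons of 137, 169 and 192 at 0 min and 88.5, 81.1 and 69.3 at 1.5 h and total values of 251.3, 294 and 379 at 0 min and 335, 273 and 308 at 1.5 h. Smtnl2 differed by -0.86 (adjusted p = 0.0254): total RNA rose by 1.25 while new exons changed by 0.39. Rgs12, a regulator of G protein signalling, differed by -0.80 (adjusted p = 0.0281), the cytokinesis kinase gene Cit by -0.68 (adjusted p = 0.0215) and the tRNA splicing gene Tsen34 by -0.56 (adjusted p = 0.00902). Calls were lost in 9 alternatives for Smtnl2, 7 each for Pou6f1 and Rgs12, 5 each for Cit and Trp53inp1, 3 for Tsen34, 2 for Ankrd6 and 1 for Mob3b. The counts rested on single libraries. Without replicate 3 of new RNA at 0 min 25 genes were higher and 1 lower, without replicate 3 of new RNA at 1.5 h 41 and 0, and without replicate 1 of new RNA at 1.5 h 51 were lower. Without replicates 1 and 2 of total RNA at 1.5 h in turn 30 and 41 were higher and 3 and 4 lower, and without those at 0 min 29 and 52 were higher and 2 and 9 lower. Without replicate 2 of new RNA at 0 min 35 were lower.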

How the results depend on the processing

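No called log2 change of a single named gene changed sign under the alternatives run, but the balance of rises and falls in new exons and introns did. Among new exon counts, deposited values as they stand gave 992 higher and 2624 lower (312 and 412 at 1.5-fold or more), the intron table's factors 670 and 2440 (256 and 550), the exon and intron sum 994 and 2166 (368 lower at 1.5-fold or more), and the 6 libraries alone 831 lower. In introns the exon table's factors gave 809 lower (1504 higher and 259 lower at 1.5-fold or more) and RPKM plus 0.1 gave 288 lower at 1.5-fold or more. Ratio counts were 412 and 226 by TMM on each table, 418 and 194 by library sums, and 25 and 2 with the 6 libraries alone.

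Against 1 h, exon rises numbered 21 by library sums, 29 with the replicate block, and 0 with the upper quartile, pseudocount 8 or RPKM plus 0.1; falls numbered 41 with deposited values as they stand, 12 with the replicate block, 2 with the libraries compared alone and 0 with the upper quartile. Intron rises were 390 by library sums, 766 with deposited values as they stand and 120 with RPKM plus 0.1; falls were 20, 33 with RPKM plus 0.1 and 39 with the libraries compared alone. Exon falls at 2 h against 1.5 h numbered 1 with the libraries compared alone. In total RNA, deposited values as they stand gave 682 and 1395. New against total gave 21 higher with deposited values as they stand, 7 and 3 with the libraries compared alone and 141 and 51 with the replicate block. The cause of these shifts was not tested beyond the construction of each setting.

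Leaving out 1 library gave, in new exons, 1351 to 1563 higher and 841 to 1180 lower (420 to 516 and 142 to 250 at 1.5-fold or more), and in introns 2234 to 2543 and 1901 to 2292 (824 to 993 and 444 to 635). For the ratio it gave 148 to 1798 and 9 to 54. Exons against 1 h had 0 to 8 and 0 to 7, introns 38 to 370 and 6 to 97, and 2 h against 1.5 h 0 to 1 each. Total RNA had 758 to 927 and 590 to 725, and new against total 25 to 123 and 0 to 51.

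Over exon genes, deviations of same-numbered libraries at 1.5 h and 0 min had correlations of 0.16, 0.01 and -0.19 in replicates 1 to 3. Replicate 2 had a higher intron share than replicate 1 at every time of labelled RNA. A shared effect of replicate number was not tested. The replicate block gave 1813 rises and 1470 falls in new exons. Precision is limited by 3 libraries a group and by values whose depth is unknown.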

Other observations

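The lists here had shares of exon calls to be read against 14.7% rises, 11.4% falls and 26.1% in either direction over all genes. Of 24 glycolysis and lactate genes 3 rose and 2 fell, and with deposited values as they stand 2 rose and 8 fell. Pfkfb3, which makes the activator of phosphofructokinase, had exon values of 461, 472 and 422 at 0 min and 844, 1119 and 860.4 at 1.5 h, without overlap, and rose by 1.05 ± 0.08 (adjusted p = 9.42e-12). Leaving out 1 library left 2 to 4 rises and 0 to 5 falls, with 0 falls without replicate 2 of 1.5 h or replicate 3 of 0 min, 1 without replicate 1 of 0 min, 4 without replicate 1 of 1.5 h and 5 without replicate 2 of 0 min. Hk2, hexokinase 2, rose by 0.92 (adjusted p = 3.16e-09). Of 20 sterol genes 4 rose and 1 fell (2 and 2 with deposited values as they stand, and 2 rises without replicate 2 or 3 of 1.5 h or replicate 1 or 3 of 0 min). Insig1, which holds back sterol synthesis, went from 1194, 1835 and 1323 at 0 min to 1988, 2428 and 2652 at 1.5 h and rose by 0.71 ± 0.15 (adjusted p = 0.000567), while Insig2 fell by 0.43 (adjusted p = 0.0175), a call lost without replicate 2 of either group.

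Of 18 p53 target genes 3 rose and 3 fell, near those shares, with Zmat3 at 0.53 (adjusted p = 9.73e-06) and Apaf1, the apoptosome scaffold, at -0.44 (adjusted p = 1.47e-05). The integrated stress response had 1 rise and 1 fall of 12: Asns, asparagine synthetase, rose by 0.34 (adjusted p = 0.000394), a call lost with the intron table's factors, and Ddit3 fell by 0.47 (adjusted p = 0.0216), and Ddit3 overlaps Mars on the other strand. The call of Ddit3 was lost without replicate 1 or 3 of 1.5 h or replicate 2 or 3 of 0 min. In the heat shock list of 15 genes 1 rose and 2 fell. Fkbp4, a co-chaperone, rose by 0.28 in exons, a call lost without replicate 1 of 1.5 h or replicate 2 of 0 min, with the 6 libraries alone and under 3 scalings, and by 1.15 (adjusted p = 2.98e-14) in introns, and Dnajb1 fell by 0.65 (adjusted p = 1.80e-06). Of 32 genes of RNA polymerase II elongation 2 rose and 5 fell, with 2 to 4 falls when 1 library was left out, 2 of them without replicate 2 or 3 of 1.5 h or replicate 3 of 0 min and 3 without replicate 1 or 2 of 0 min. Cdk9, the kinase that releases paused polymerase, rose by 0.34 (adjusted p = 0.00116), a call lost with the intron table's factors. Of 52 cytosolic ribosomal protein genes 0 rose and 2 fell, Rpl3 and Rps2, by 0.18 and 0.22, or 0 and 9 with deposited values as they stand and 0 and 0 without replicate 3 of either group or replicate 1 of 0 min (limma; 1 and 5 at an unadjusted p under 0.05 with all libraries). The Notch list had 2 rises and 0 falls of 11 (3 and 1 at an unadjusted p under 0.05), with Hes1 at 0.85 (adjusted p = 0.0119), a call lost without replicate 2 of 1.5 h or replicate 3 of 0 min. Fibroblast markers had 1 rise and 2 falls of 11, and of the 3 neural markers in the tables Tubb3 rose and Map2 fell, calls lost under 7 and 4 alternatives.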
